A study of Mus musculus with 4 samples.

Results

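The tripartite motif (Trim) family was examined in plasmacytoid dendritic cells (pDCs) sorted from mouse spleen, with 2 samples from Flt3 knockout (Flt3 KO) mice and 2 from wild-type (WT) mice, each on its own whole-transcript array. Members were all genes with a symbol made of Trim, a number and an optional letter and with a probe set annotated to that symbol alone, other than Trim21, Trim25 and Trim30a, which were not analysed here. This gave 55 genes of 19938 measured, each read by a single probe set. The mice were untreated, the Flt3 KO animals carried the knockout as the one labelled difference, and the cells came from enzyme-digested spleens. The labels call the 2 samples of each genotype biological replicates. The sources used here do not give strain, age, the Flt3 allele or the number of animals behind a replicate. The p-values set each difference against the spread between replicates, shared across genes, and that spread may be partly technical.

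TRIM proteins typically carry a RING finger, which makes them ubiquitin ligases, followed by B-boxes and a coiled coil through which they pair. A variable C-terminal domain chooses the partner: SPRY domains bind proteins and viral capsids, PHD fingers with a bromodomain read chromatin, NHL repeats bind RNA or protein, and COS domains bind microtubules. Many members tune the signalling that leads to interferon, of which pDCs are the foremost producers, and others control transcription, the cytoskeleton or muscle. Flt3 encodes the receptor kinase for the cytokine that drives dendritic cell development.

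The sequences shown here lie around the annotated start of Trim genes that are near each other on chromosome 7. Trim12a and Trim12c of that group had the lowest limma p-values of the family, though neither passed the adjusted threshold as reported below. Whether these sequences bear on the differences was not tested. The windows below are RefSeq sequence of GRCm38.p6, read along the gene's strand and ending with a match to the interferon-response-type motif GAAANNGAAA, or TTTCNNTTTC on the other strand, shown in capitals.
Trim12a: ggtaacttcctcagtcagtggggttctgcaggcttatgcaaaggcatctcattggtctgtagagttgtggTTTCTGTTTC
Trim12c: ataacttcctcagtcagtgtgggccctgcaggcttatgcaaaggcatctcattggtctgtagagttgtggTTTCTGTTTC
Trim34a: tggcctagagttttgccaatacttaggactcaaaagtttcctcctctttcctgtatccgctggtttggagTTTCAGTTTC
Trim30d: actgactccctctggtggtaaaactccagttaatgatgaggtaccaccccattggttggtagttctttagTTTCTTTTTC

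The Trim12a window is chr7:104315476-104315555 on the minus strand and the Trim12c window chr7:104353369-104353448 on the minus strand. The Trim34a window is chr7:104244397-104244476 on the plus strand and the Trim30d window chr7:104507881-104507960 on the minus strand. Each is 80 bases long, and those of Trim12a and Trim34a run 20 bases past the annotated start of the gene. The full windows of Trim12a and Trim12c span 250 bases before and 50 after the start. In their best local alignment, which leaves out part of each window and has 1 gap, 247 of 260 aligned bases were identical.

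Within these windows 43 of the 55 members could be searched, and the motif was found in 6 of them, against 3.99% of 27025 genes with such a window. Trim2 and Trim26 were the others, and Trim26 had 2 overlapping matches. Of the 4 chromosome 7 genes, Trim12a and Trim12c have windows that are near-identical where they align and are not separate instances. The motif was chosen after seeing which members had low p-values, so the count beside the share of all genes is no test of the family. A match describes letters only.

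Signal was set against the array median, since detection calls were not used here. The median log2 intensity over all probe sets lay between 5.78 and 5.84 on the 4 arrays, with a mean of 5.81. On the 4-array mean, 30 Trim genes (54.5%) lay above that value and 25 below, beside 51.5% of all genes above it. On single arrays, 29 members were above the array's own median everywhere and 24 nowhere. The other two were Trim16, above it on 3 arrays, and Trim67 on 2.

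The genotypes were compared with limma on log2 intensity, with Benjamini-Hochberg adjustment over all 19938 genes and a threshold of 0.05 on the adjusted p. Differences are in log2 units, Flt3 KO minus WT, with limma's standard error (SE). The Flt3 probe set itself read 8.46 and 8.61 in Flt3 KO and 10.71 and 10.77 in WT (log2 intensity), lower in the Flt3 KO arrays as labelled. Across all genes 476 passed, 215 higher and 261 lower. That balance moved with scaling, to 217 higher and 452 lower after centring each array on its median and to 293 higher and 259 lower after quantile normalization. Of 11 measured pDC markers all lay above the array median, 6 fell and none rose, with a median difference of −0.25. Among 13 measured monocyte and macrophage markers 5 rose (Ccr2, Cd14, Cx3cr1, Fn1 and Lyz2) and none fell past the threshold. The other 8 did not pass. Of these, Csf1r (0.52), C1qa (0.50) and C1qc (0.44) lay higher at an unadjusted limma p under 0.05. C1qb (0.34), Vcam1 (0.31) and Adgre1 (0.23) also lay higher, and Cd68 (−0.11) and Fcgr1 (−0.044) lay lower. The median difference of the 13 was 0.50. The summed intensity of the 13 was 5457 and 6975 in Flt3 KO arrays 1 and 2 and 4731 and 4414 in WT arrays 1 and 2. Of 7 measured markers each of B cells, T cells, neutrophils and conventional dendritic cells, 0 passed in limma. Some had an unadjusted p under 0.05, as did 17.1% of all genes. Of these, the dendritic cell markers Itgax (0.22), Zbtb46 (0.48) and Cd209a (0.24) lay higher. So did Cd3e (0.29) and Cd3d (0.35) of T cells and Cr2 (0.35) of B cells. Cd5 (−0.36) of T cells, Cd79b (−0.25) of B cells and S100a8 (−0.34) of neutrophils lay lower. In bulk samples, fewer cells of a type and less RNA per cell cannot be told apart.

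None of the 55 Trim genes passed the limma threshold, against 2.39% of all genes. At an unadjusted p under 0.05 there were 11 members (20.0%), beside 17.1% of all genes. Of these, 4 lay higher in Flt3 KO, beside 6.95% of all genes, and 7 lay lower, beside 10.1%. The values of the genotypes did not overlap for 27 members (49.1%), beside 47.2% of all genes, so both shares lay near the background. Differences in the family ran from −0.43 for Trim12c to 0.48 for Trim10, and the median absolute difference was 0.11, beside 0.097 over all genes.

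The intervals of the differences bound what these arrays could have missed. The limma 95% interval, not adjusted for the number of genes, lay within 1.5-fold either way for 29 of the 30 members above the array median, Trim16 being the exception, and for 52 of all 55, where Trim12c and Trim10 were the others. Among the 30 brighter members the intervals reached between 0.13 and 0.39 to either side of the difference. A missing call therefore does not show equal levels.

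Among the 30 members above the array median 0 passed, beside 4.27% of all genes above it, and 9 had an unadjusted p under 0.05 (30.0%), beside 25.2%. The genotypes did not overlap for 18 of the 30 (60.0%), beside 55.9%. These shares too were close to those of other genes of similar brightness.

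**Figure D1:**
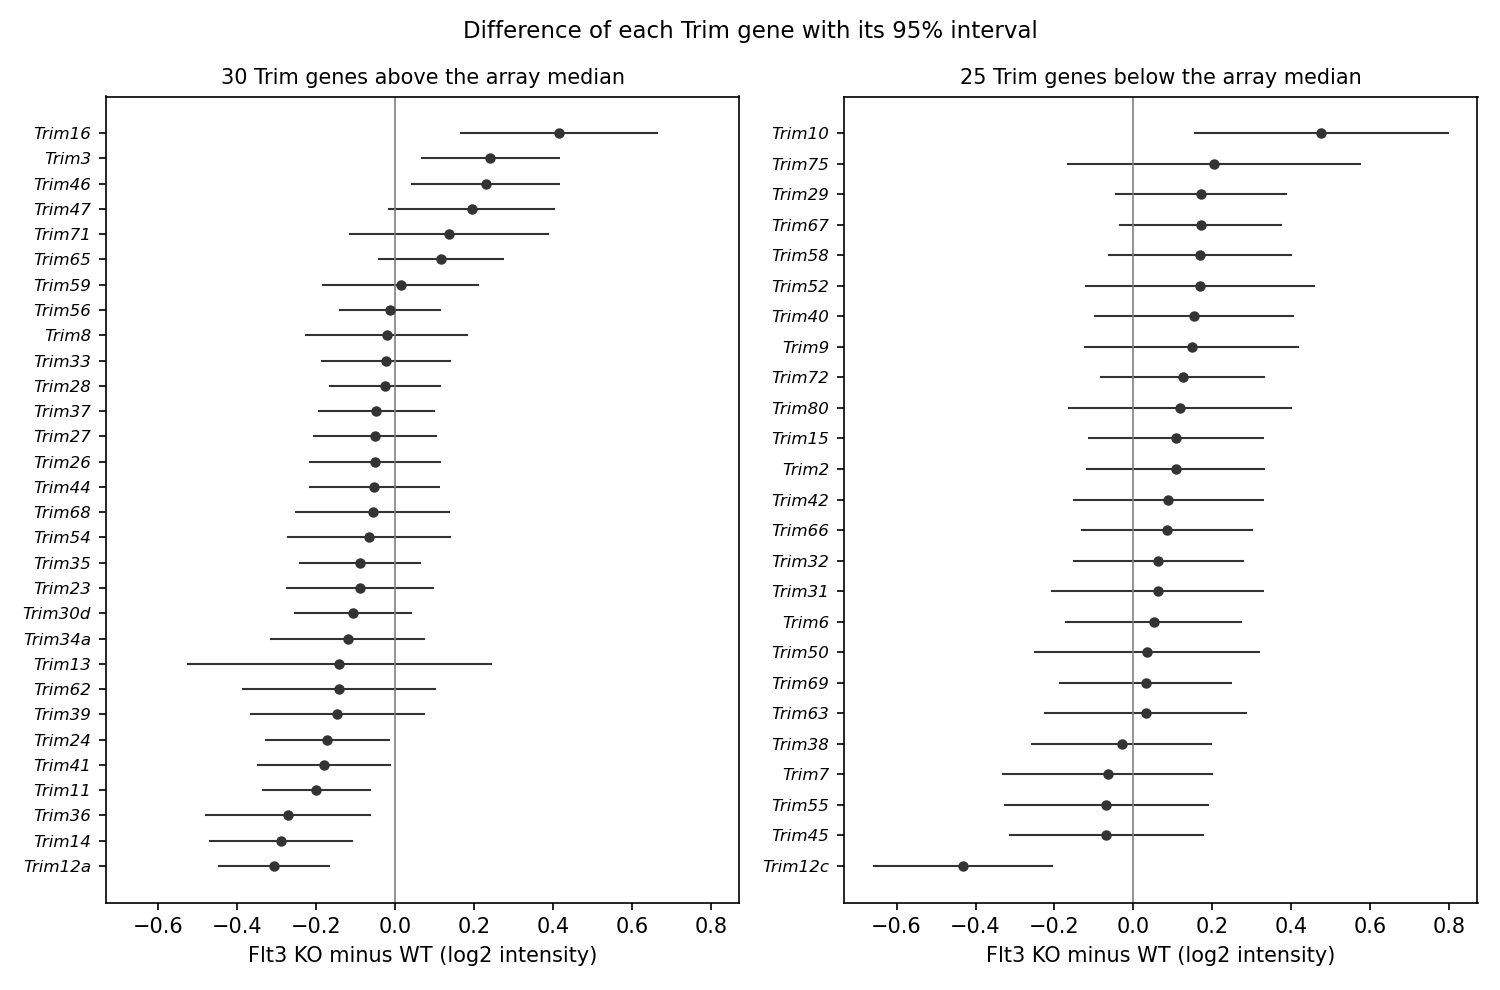
Flt3 KO minus WT difference in log2 intensity (horizontal axis) of each of the 55 Trim genes, with its limma 95% interval as a bar, for the 30 members above the array median on the left and the 25 below it on the right. The points lie between −0.43 and 0.48, with Trim12a at the low end on the left and Trim10 and Trim12c at the ends on the right.

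By direction, 23 of the 30 brighter members lay lower in Flt3 KO (76.7%), beside 59.8% of all genes above it. The median difference of the 30 was −0.056, against −0.035 for all such genes. The count was 24 of 30 after median centring, where 69.9% of all such genes lay lower, and 20 of 30 under quantile normalization, where 52.6% did. The median was −0.050 in Flt3 KO array 1 and −0.054 in array 2 relative to the WT mean. Of the 25 members below the array median, 20 lay higher in Flt3 KO, beside 5772 of all 9661 genes below it, and their median was 0.088, against a median of 0.031 for all genes below it. Opposite leanings of bright and dim probe sets were thus present in the whole table and in the family.

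**Figure D2:**
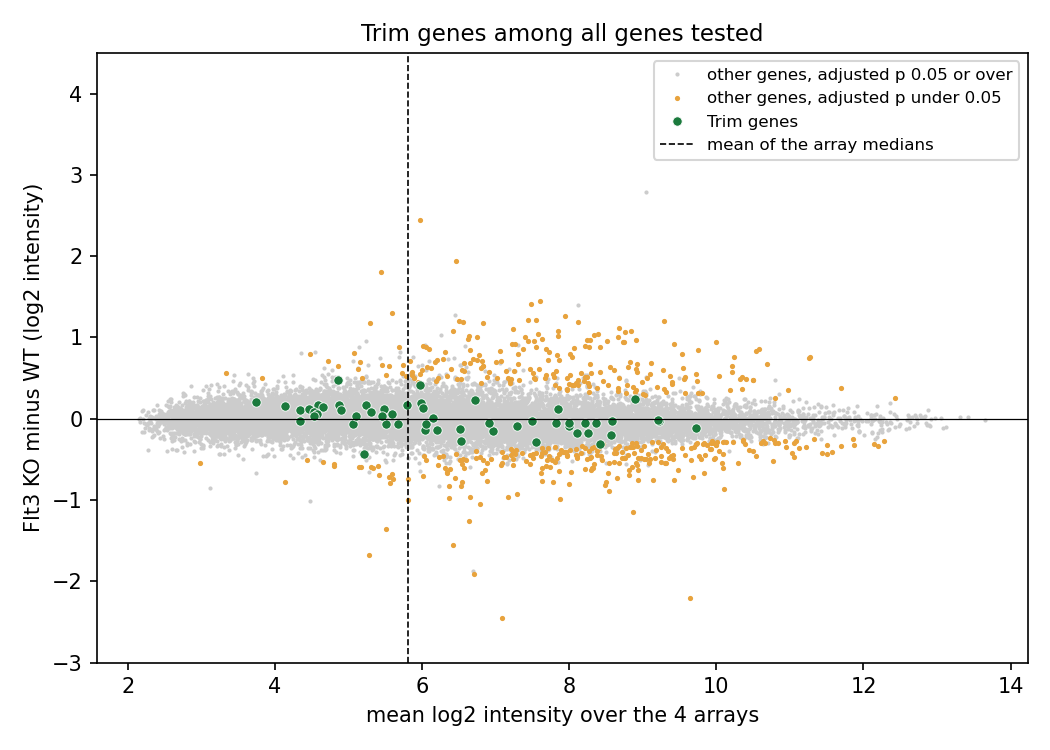
Flt3 KO minus WT difference (vertical axis, log2 intensity) against mean log2 intensity over the 4 arrays (horizontal axis) for all 19938 genes, with the 55 Trim genes in green, other genes past the adjusted p of 0.05 in orange and the mean of the array medians as a dashed line. The Trim genes sit inside the grey cloud, none beyond −0.43 or 0.48, while the whole table reaches −2.46 and 2.79.

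Of the neighbouring chromosome 7 genes, the Trim12 and Trim30 genes belong to a rodent expansion related to human TRIM5, a SPRY-type restriction factor that binds retroviral capsids. Trim12a (Entrez gene 76681) had 8.27 and 8.25 in Flt3 KO and 8.57 and 8.56 in WT (log2 intensity, as for all array values that follow). Both Flt3 KO arrays were below both WT arrays, and replicates lay close together. The means were 8.26 ± 0.017 in Flt3 KO and 8.56 ± 0.013 in WT (SD, n = 2 each), a 1.24-fold lower signal in Flt3 KO. The difference was −0.31 (SE 0.060), and its limma adjusted p of 0.0523 missed the threshold narrowly. With other processing it was 0.0300 (median centring), 0.0400 (robust variance) or 0.0265 (only genes above the array median tested), all past the threshold, and up to 0.143 in the other alternatives with all arrays kept.

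Trim12c (Entrez gene 319236), whose window is nearly the same as that of Trim12a where they align, had 4.93 and 5.07 in Flt3 KO and 5.43 and 5.43 in WT. The groups were apart, but all values were below the array median, where signal over background is low. The difference was −0.43 (SE 0.097, limma adjusted p = 0.0800), and 0.0460 after median centring. The paralogs share much of their sequence, so their probe sets may read some of the same transcripts and the values are uncertain as to gene. A probe set annotated jointly to Trim5, Trim12c and Trim12a had 7.42 and 7.25 in Flt3 KO and 7.35 and 7.49 in WT, overlapping between genotypes, with a difference of −0.086 (SE 0.094).

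The other members of the run showed smaller differences. Trim30d had 9.72 and 9.62 in Flt3 KO and 9.72 and 9.84 in WT, a difference of −0.11 (SE 0.064, limma adjusted p = 0.441). Trim34a had 6.46 and 6.44 in Flt3 KO and 6.51 and 6.63 in WT, a difference of −0.12 (SE 0.084, limma adjusted p = 0.520). In both genes the groups were apart only narrowly. Trim6, the member of the run with a positive difference, was below the array median at 4.60 and 4.56 in Flt3 KO and 4.58 and 4.47 in WT. Of the 5 genes, 4 lay lower in Flt3 KO, beside 50.3% of all genes, and none passed the limma threshold. Trim12a and Trim12c may not be separate readings in that count.

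**Figure D3:**
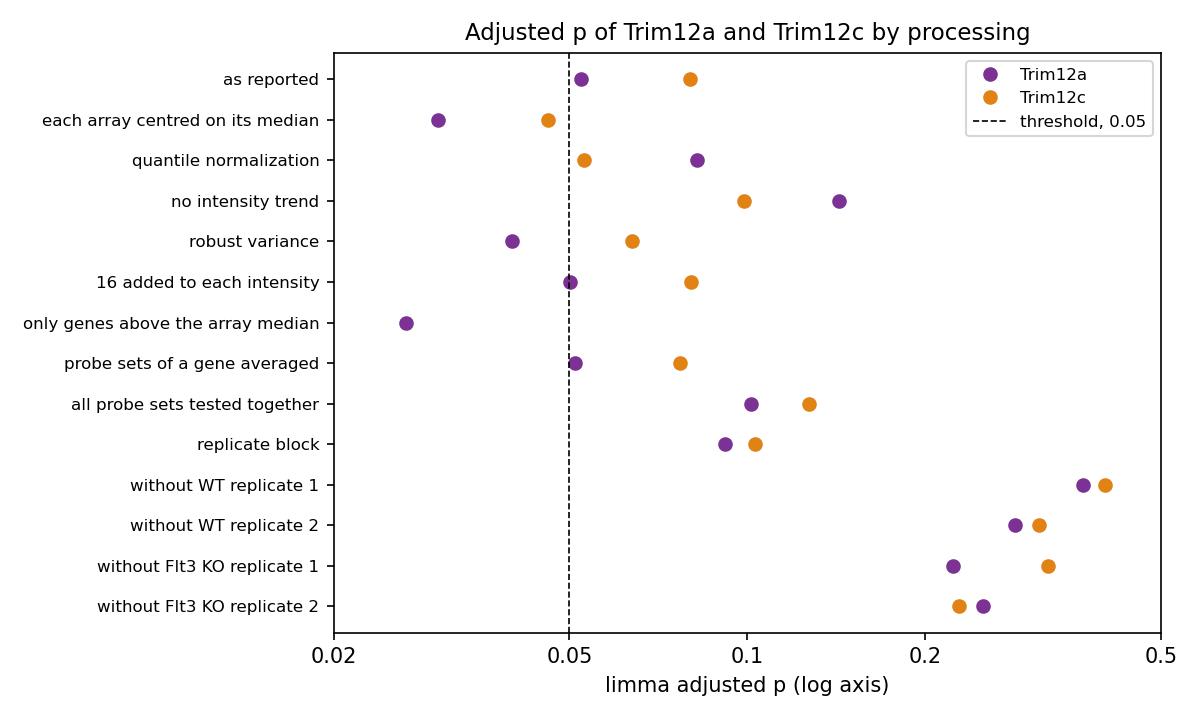
Limma adjusted p (horizontal log axis) of Trim12a and Trim12c under each processing of the arrays (vertical axis), with the threshold of 0.05 as a dashed line. Trim12a lies left of the line under 3 alternatives and Trim12c under 1, and with any single array left out both lie at 0.222 or above.

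None of the members known to act on interferon signalling passed the limma threshold. Trim14, a RING-less SPRY protein that in human cells serves as an adaptor for the antiviral protein MAVS at mitochondria, had 7.36 and 7.44 in Flt3 KO and 7.75 and 7.63 in WT. Both Flt3 KO arrays were below both WT arrays, with a difference of −0.29 (SE 0.078, limma adjusted p = 0.121). Trim56, a ligase that promotes DNA-sensor signalling, had 9.18 and 9.21 in Flt3 KO and 9.21 and 9.21 in WT. Its difference of −0.014 (95% interval −0.14 to 0.11) was the one with the smallest SE of the family, 0.055.

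Trim8 stabilises the active form of IRF7 in human pDCs, as background. It had 8.45 and 8.69 in Flt3 KO and 8.56 and 8.63 in WT. The Flt3 KO arrays enclosed the WT arrays, and the difference was −0.022 (95% interval −0.23 to 0.18). Trim23, which carries an ARF-type GTPase domain and activates the kinase TBK1, differed by −0.090 (SE 0.079). Trim65, a ligase for the RNA sensor MDA5, differed by 0.12 (SE 0.068).

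The partners of these ligases in cytosolic RNA and DNA sensing gave 1 lower and 0 higher of 15 measured, with a median difference of −0.096. Of all genes above the array median 4.27% passed, and their median difference was −0.035. The gene that fell was Irf7, the master transcription factor of interferon-α production, with 10.67 and 10.63 in Flt3 KO and 10.88 and 11.02 in WT, a difference of −0.30 (SE 0.058) at a limma adjusted p just under the threshold (0.049995). The call was lost without the intensity trend (0.190), with 16 added to each intensity (0.0516), with all probe sets tested together (0.101), with the replicate number as a block (0.0625) and with any array left out. All 15 lay above the array median, where 25.2% of all genes had an unadjusted limma p under 0.05 in either direction. Of the 15, 5 had such a p, all lower. Besides Irf7 these were Irf3 at −0.27, the kinase genes Ikbke at −0.33 and Map3k7 at −0.20, and Ikbkg at −0.22, and none of these 4 passed the adjusted threshold. Among 14 measured E2 enzymes that hand ubiquitin to TRIM ligases, 0 passed in limma and the median was 0.010. None of these 14 had an unadjusted p under 0.05 either, and 12 of them lay above the array median, where the share of all genes was 25.2%.

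Chromatin members with PHD finger and bromodomain were 3 above the array median. Trim28, the corepressor that KRAB zinc-finger proteins recruit to silence retroelements, had 9.20 and 9.22 in Flt3 KO and 9.28 and 9.18 in WT. The genotypes overlapped, and the difference was −0.026 (95% interval −0.17 to 0.12). That sign turned when arrays were quantile-normalized or WT replicate 1 was left out. Trim33, a regulator of SMAD signalling, had 7.47 and 7.50 in Flt3 KO and 7.54 and 7.48 in WT and differed by −0.024, and its sign turned in the same cases. Trim24, a nuclear receptor coregulator and ligase for p53, had 7.98 and 8.06 in Flt3 KO and 8.16 and 8.23 in WT. There both Flt3 KO arrays were lower, by a mean of 0.17 (SE 0.068, limma adjusted p = 0.259). Of 16 measured partners of TRIM28 in silencing, 0 passed in limma and 2 had an unadjusted p under 0.05, Hdac1 at −0.16 and Chd3 at 0.19. Of the 16, 14 lay above the array median, where 25.2% of all genes had such a p. The median difference of the 16 partners was −0.050.

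The SPRY class held 24 measured members, 13 of them above the array median. Classes were given by gene and not checked against protein sequences, so the domain of a single member, Trim12a included, is uncertain. Of the 13, 11 lay lower and 2 higher, with a median of −0.11 and none past the limma threshold. Of all genes above the array median 59.8% lay lower. Trim14 and Trim16, without a RING, and Trim36 and Trim46, with a COS domain, also carry SPRY and were classed apart. In each of these pairs 1 lay lower and 1 higher. Trim11, which in human cells promotes removal of misfolded proteins, had 8.47 and 8.48 in Flt3 KO and 8.67 and 8.67 in WT. Replicates were almost identical and the groups apart, with a difference of −0.20 (SE 0.059, limma adjusted p = 0.147).

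Trim41, a ligase for protein kinase C in human cells, had 8.10 and 8.23 in Flt3 KO and 8.37 and 8.32 in WT, with the Flt3 KO arrays lower by a mean of 0.18 (SE 0.072, limma adjusted p = 0.265). Trim27, a ligase that regulates endosomal sorting, differed by −0.052 (SE 0.067). The remaining brighter SPRY genes, Trim26, Trim35, Trim39, Trim47, Trim62 and Trim68, lay between −0.15 for Trim39 and 0.19 for Trim47. Trim47 had 6.14 and 6.01 in Flt3 KO and 5.88 and 5.88 in WT, apart but only slightly above the array median (SE 0.090, limma adjusted p = 0.332). Trim39 had 6.93 and 6.85 in Flt3 KO and 7.14 and 6.93 in WT, where the higher Flt3 KO array nearly met the lower WT array (limma adjusted p = 0.483). Trim39 and Trim26 sit in the major histocompatibility region together with Trim10, Trim15, Trim31 and Trim40. None of these 6 passed the limma threshold. The first 2 lay lower and the 4 dimmer ones higher, and the same leanings of bright and dim genes were present in the whole table.

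Several members lay higher in both Flt3 KO arrays. Trim16, a RING-less SPRY protein that takes part in autophagy of damaged lysosomes, had 6.07 and 6.27 in Flt3 KO and 5.83 and 5.69 in WT. The groups were apart, though the WT values straddled the array median. The difference was 0.41 (SE 0.11, limma adjusted p = 0.111), a 1.33-fold higher signal. Trim3, an NHL-repeat protein studied mainly in neurons, had 8.92 and 9.11 in Flt3 KO and 8.77 and 8.78 in WT. Its difference of 0.24 (SE 0.075, limma adjusted p = 0.168) was 0.15 when Flt3 KO replicate 2 was left out and 0.34 when replicate 1 of that genotype was. For Trim16 these values were 0.31 and 0.52. Flt3 KO replicate 2 was the higher array for both genes. It also read above Flt3 KO replicate 1 for 17 of the 30 brighter members and 6044 of all 10277 genes above the array median. The sum of monocyte and macrophage markers was larger in that array too. Of the 5 markers that passed, Ccr2, Cd14 and Cx3cr1 were higher in it than in replicate 1, and Fn1 and Lyz2 lower. The part of monocytes and macrophages in the differences of Trim3 and Trim16 was not tested. Trim71, the other NHL member above the array median and the mammalian counterpart of the worm developmental gene lin-41, had 6.21 and 5.95 in Flt3 KO and 5.93 and 5.95 in WT. These values overlapped, with a difference of 0.14 (SE 0.11).

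**Figure D4:**
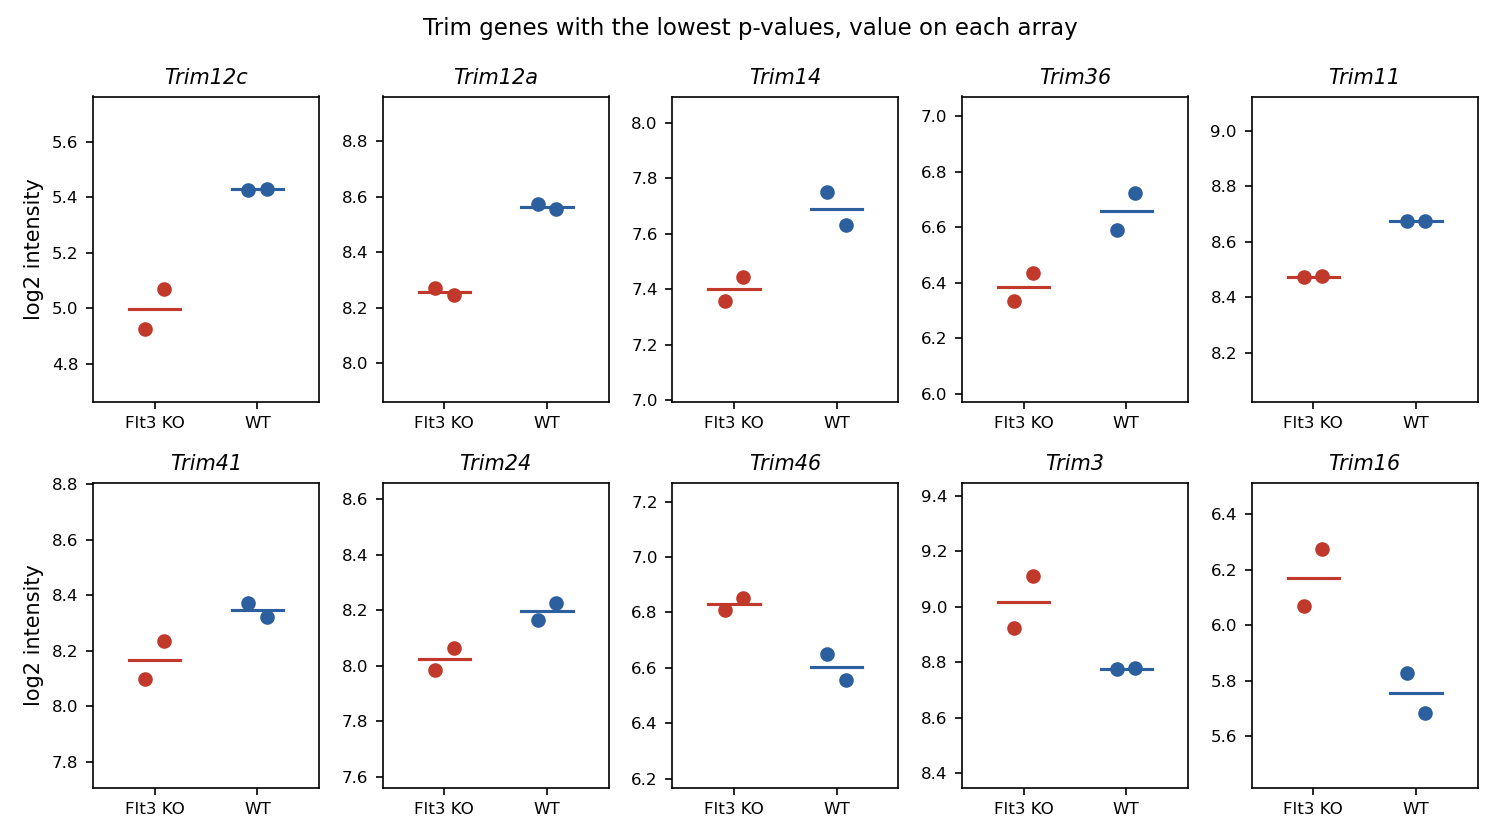
Log2 intensity on each array (vertical axis, the same span of 1.1 in every panel) of Trim12c and of the 9 members above the array median with an unadjusted p under 0.05, with Flt3 KO in red on the left and WT in blue on the right, points for arrays and lines for means. In each panel the points of the genotypes do not overlap, with Flt3 KO lower in 7 panels and higher for Trim16, Trim3 and Trim46.

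Microtubule-binding COS members went both ways. Trim46, which bundles microtubules in neurons, had 6.81 and 6.85 in Flt3 KO and 6.65 and 6.56 in WT, a difference of 0.23 (SE 0.080, limma adjusted p = 0.212). Trim36 had 6.33 and 6.44 in Flt3 KO and 6.59 and 6.72 in WT, a difference of −0.27 (SE 0.089, limma adjusted p = 0.186). For each gene the groups were apart. Trim54, of the muscle-specific MURF type, differed by −0.066, and its relatives Trim55 and Trim63 were below the array median on every array.

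The rarer C-terminal types had 1 or 2 members each. Trim37, a MATH-domain ligase of peroxisomes and centrosomes, had 8.21 and 8.16 in Flt3 KO and 8.23 and 8.23 in WT, narrowly apart, with a difference of −0.048 (SE 0.063). Trim44, RING-less with a ubiquitin-protease-type zinc finger, had 8.40 and 8.26 in Flt3 KO and 8.39 and 8.39 in WT, overlapping. Trim13, anchored in the endoplasmic reticulum membrane, had 5.89 and 6.36 in Flt3 KO and 6.13 and 6.40 in WT. Its replicates differed more than its genotypes, and it had the largest SE of the family, 0.16. Trim59, the other transmembrane member, differed by 0.014 (SE 0.084), and Trim45, with a filamin repeat, lay below the array median.

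The 25 dimmer members hold genes known from other tissues. Trim55, Trim63 and Trim72 act in muscle, and Trim10 and Trim58 in red cell precursors. Trim10 had 5.07 and 5.12 in Flt3 KO and 4.81 and 4.42 in WT, a difference of 0.48 (SE 0.14, limma adjusted p = 0.141), and Trim58 differed by 0.17 (SE 0.099). Of 6 measured erythroid markers, 1 (Slc4a1) lay above the array median and 0 passed in limma, with 1, Epb42, at an unadjusted p under 0.05. Their summed intensity was 202.2 and 221.8 in Flt3 KO and 255.0 and 206.1 in WT, overlapping. Except for Trim12c and Trim10, no dimmer member had an unadjusted p under 0.05.

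Among 10 measured genes of TRIM type or related build that carry other names, 1 rose and 0 fell, where 2.39% of all genes passed. Mefv, which encodes pyrin, an inflammasome sensor of myeloid cells, had 6.04 and 6.22 in Flt3 KO and 5.64 and 5.54 in WT. The difference was 0.54 (SE 0.10, limma adjusted p = 0.0449), and the WT arrays were below the array median. The call was lost in the same alternatives as that of Irf7, with limma adjusted p-values of 0.0502 to 0.342. The rise stood beside that of the 5 monocyte and macrophage markers named above, whose part in it was not tested. The other 8 markers of that list did not pass. Pml, the organiser of nuclear bodies, differed by −0.099 (SE 0.056) and did not pass.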

How the data were processed

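Values for 30177 probe sets on 4 arrays were used as deposited: intensity on a linear scale, already processed by the authors with steps that neither the file nor the labels state. Arrays limit precision through their number, here 2 per genotype.

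Names came from the platform annotation, in which 21789 probe sets had 1 symbol and entered the comparison, 1621 had several and 6767 none. The brightest probe set stood for each of 19938 genes. Intensities were converted to log2 with no added constant and no filter, and compared with limma 3.58.1 in R 4.3.3 (intensity trend, no covariate). The fit was also run on simulated data with differences larger than any in the family. That run does not show what the fit recovers at the sizes seen here. An exact two-sided permutation test of 2 against 2 cannot go below 0.333, so the limma p-values rest on variance shared across genes.

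Named members were those with an unadjusted p under 0.05 above the array median, the 10 brightest, the brightest of each C-terminal class and a fixed set of known regulators. Members, lists, classes and tests were chosen with earlier results of these data known. The motif was chosen after seeing which members had low p-values. Same-numbered replicates did not deviate together (r = −0.017 over genes, with 2 pairs). So few arrays cannot show whether same-numbered samples shared a step.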

Additional observations from a re-analysis of the deposited data

How the results depend on the processing

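No Trim gene passed the threshold higher in Flt3 KO under any alternative run. The count of lower ones, 0 as reported, was 2 after centring each array on its median (Trim12a and Trim12c), 1 with robust variance and 1 with only genes above the array median tested (Trim12a in both). Without an intensity trend, with 16 added to each intensity, with probe sets averaged, with all probe sets tested together, under quantile normalization or with any array left out, it stayed at 0. The replicate block also gave 0 Trim genes in limma (9 at an unadjusted p under 0.05), with 375 genes called in the whole table. The labels do not say whether same-numbered samples shared any step. Whole-table counts moved more, from 476 to 108 without the intensity trend, 219 with all probe sets tested together, 721 with only brighter genes tested, and 0 to 54 with an array left out, where the fit has 1 residual degree of freedom.

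The median difference of the brighter members, −0.056 as reported, was −0.094 after centring, −0.021 under quantile normalization and −0.051 with 16 added, and −0.055 to −0.050 with an array left out. The number of members above the array median was 30 or 31 throughout. Of 321 comparisons of a named gene with an alternative, 305 kept direction and side of the threshold, 4 crossed it and 12 changed sign. Under quantile normalization the signs of Trim28 (0.0093), Trim33 (0.019), Trim56 (0.018) and Trim8 (0.029) turned. With an array left out the ranges that included 0 were −0.38 to 0.094 for Trim13, −0.078 to 0.026 for Trim28 and −0.055 to 0.0059 for Trim33. They were −0.12 to 0.016 for Trim44, −0.17 to 0.027 for Trim45, −0.032 to 0.0046 for Trim56 and −0.14 to 0.096 for Trim8. The cause of these changes was not tested.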

Other observations

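Trim genes also appear on probe sets that the annotation shares between several symbols, which were left out of the family; the one shared by Trim5, Trim12c and Trim12a is given above. A probe set shared by Trim5 and Trim12c had 6.53 and 6.41 (log2 intensity) in Flt3 KO and 6.17 and 6.64 in WT, with WT replicates further apart than any Flt3 KO value from the WT mean. One shared by H2aw and Trim17 had 8.18 and 8.12 in Flt3 KO and 8.27 and 8.20 in WT, and one shared by Gm38525 and Trim30b had 6.69 and 6.57 in Flt3 KO and 6.68 and 6.71 in WT. The probe sets shared by Trim60 and Trim61 and by the Trim43 genes, and the single-symbol probe set of the pseudogene Trim30e-ps1, which is no member, lay below the array median on every array. None passed in limma when all probe sets were tested together, and 0 had an unadjusted p under 0.05.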
